A study of Mus musculus with 16 samples.

Results

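NRF2 antioxidant response genes were examined in liver RNA of 16 male C57BL/6J mice, as 10 genes chosen by symbol: Nfe2l2, Keap1, Nqo1, Gclc, Gclm, Hmox1, Txnrd1, Srxn1, Gsr and Osgin1. All 10 were found among the 50559 gene symbols of the table of expected counts, and all 10 were among the 18335 genes that passed the low-count filter. Diets started at 6 weeks of age and lasted 10 weeks, and treatment covered the final 4 of these, with 4 mice in each of 4 groups. The LFD group (named chow in the labels) and the HFD group, on a high-fat diet, were given a control siRNA against luciferase (10 mg/kg, every 2 weeks) together with gavage of methylcellulose alone. The HFD + siRNA group had the high-fat diet, siRNA against total ketohexokinase (KHK, the enzyme that phosphorylates fructose) (20 mg/kg every 2 weeks) and the same gavage. This siRNA carries GalNAc, a sugar that hepatocytes take up. The HFD + Inhib group had the high-fat diet, the control siRNA and the KHK inhibitor PF-06835919 at 15 mg/kg 2 times daily, which acts in the whole body. The methods state that mice were given saline or insulin shortly before the tissue was taken, and the labels do not say which mouse had which. The labels give the libraries of a group as separate samples, and totals of expected counts ranged from 24317111 to 35820234 per library.

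NRF2, the product of Nfe2l2, is a transcription factor that KEAP1 binds and hands to a CUL3 ubiquitin ligase for degradation. When oxidants or electrophiles modify KEAP1, NRF2 accumulates, pairs with a small MAF protein and binds antioxidant response elements in genes for glutathione synthesis, thioredoxin and peroxiredoxin recycling, quinone reduction and conjugation of xenobiotics. In liver the pathway is known for protection from reactive drug metabolites. NRF2 is controlled largely at the protein level, so the level of Nfe2l2 mRNA is not a measure of NRF2 activity.

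The labels were checked on the siRNA target. Khk was at 214, 233, 349 and 269 CPM (expected counts relative to the library total, scaled between libraries by TMM) in the LFD livers and at 251, 322, 233 and 251 CPM in the HFD livers. It was at 11.8, 9.14, 18.1 and 11.5 CPM with the siRNA and at 112, 152, 94.6 and 120 CPM with the inhibitor. Neither treated group overlapped with the HFD group, and Khk fell with the siRNA (log2 fold change -4.38 ± 0.23 SE, adjusted p = 1.9e-08) and with the inhibitor (-1.14 ± 0.20, adjusted p = 0.00075). Adjusted p-values came from the quasi-likelihood test of edgeR, with the Benjamini-Hochberg method applied over all genes tested, a gene was called at an adjusted p under 0.05, and n = 4 in each group. All 7 hepatocyte markers were detected in every library, with Alb, which encodes albumin, the most abundant. Their summed level was 43700 to 47200 CPM in the HFD + Inhib livers and 58000 to 87400 CPM in the other 12, so the groups did not overlap. Most of this sum was Alb, with a mean of 29900 CPM with the inhibitor and 51000 CPM in HFD. Of the 7 markers, 3 were called lower with the inhibitor than in HFD and none higher. Cyp2e1 was instead called higher with the inhibitor than with the siRNA (log2 fold change 0.91, adjusted p = 0.0039) and than in LFD (0.84, adjusted p = 0.0059). In those comparisons 5 and 6 of the 7 were called lower. The HFD + Inhib livers also had the lowest lymphocyte marker levels (1.59 to 2.86 CPM in sum, against 3.49 to 9.09 CPM in the other 12, with Cd4 the most abundant and no marker at 0), and 4 of the 7 tested were called lower than in HFD. The macrophage markers summed to 185 to 280 CPM with the inhibitor and to 269 to 420 CPM in the other 12, with the Kupffer cell gene Clec4f the most abundant of 12 and none at 0. Of these, 2 were called lower than in HFD and none higher, although some had a higher mean with the inhibitor. The counts of lower markers in these lists are to be read beside 8.42% of all tested genes called lower with the inhibitor than in HFD. In bulk RNA, fewer cells of a type and less RNA per cell cannot be told apart, and the part of these shifts in the results with the inhibitor was not tested.

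The promoters show which members carry the letters of an antioxidant response element near their start. RefSeq promoters (GRCm38.p6, 250 bases before to 50 after a start) were at hand for 7 of the 10 members, and Gclc, Hmox1 and Gsr had none in the table. The motifs TGACNNNGC and TGAGNNNGC were searched on both strands, where N is any base. At least 1 of them was in the promoters of 5 of the 7 genes, against 30.8% of 27025 genes with a promoter. The first was in 4 of the 7 (14% of all genes) and the second in 2 of the 7 (19.8% of all genes). These shares are a description, and enrichment was not tested. The members were picked as NRF2 response genes, and both motifs were settled on with the members' results already known. The second motif was picked with the matches of the first in view, and Osgin1 counts through the second alone. Txnrd1 had 3 promoters in which a match could fall, and the other members with a promoter had 1 each. Keap1 and Nqo1 had no match in these windows. The stretches around the matches are shown because some of these genes rose and others fell in the comparisons that follow, with the match in capitals, 5′ to 3′ on the strand of the gene.

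Nfe2l2 (chr2:75704870-75704913, minus strand, match 240 bases before the start): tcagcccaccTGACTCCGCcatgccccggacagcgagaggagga
Gclm (chr3:122245398-122245456, plus strand, match 134 bases before the start, motif on the opposite strand): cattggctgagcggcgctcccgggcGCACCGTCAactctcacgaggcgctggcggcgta
Txnrd1 (chr10:82859089-82859147, plus strand, 1 of 3 promoters, match 92 bases before the start, motif on the opposite strand): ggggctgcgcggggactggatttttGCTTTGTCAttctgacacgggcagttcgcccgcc
Srxn1 (chr2:152105341-152105399, plus strand, match 158 bases before the start, motif on the opposite strand): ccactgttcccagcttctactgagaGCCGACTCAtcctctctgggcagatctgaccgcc
Srxn1 (chr2:152105454-152105512, plus strand, match 45 bases before the start): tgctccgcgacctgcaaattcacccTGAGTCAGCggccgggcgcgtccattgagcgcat
Osgin1 (chr8:119437023-119437081, plus strand, match 99 bases before the start, motif on the opposite strand): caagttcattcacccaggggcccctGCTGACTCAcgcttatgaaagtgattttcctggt

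Read on its own strand, the Osgin1 match has the letters TGAGTCAGC, the same 9 as the Srxn1 match nearest before the start, and both contain the AP-1 motif TGAGTCA. Srxn1 had a further match after its start, which is not shown. A match is a description of letters and not a site bound in these livers.

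The members differed widely in level. Per kilobase of the longest GENCODE transcript, Gclc and Osgin1 were highest in the LFD livers (93.7 and 92.1 mean CPM per kb), followed by Txnrd1 (36.1), Gsr (26.7), Nfe2l2 (21.9), Gclm (20.6), Keap1 (13), Hmox1 (10.5), Srxn1 (8.64) and Nqo1 (2.5). The places of Gclm and Osgin1 depended on the transcript: with the median length they were at 115 and 137 CPM per kb. The low level of Nqo1, often used as a reporter of NRF2, rested on 91 to 132 expected counts per LFD library.

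**Figure D1:**
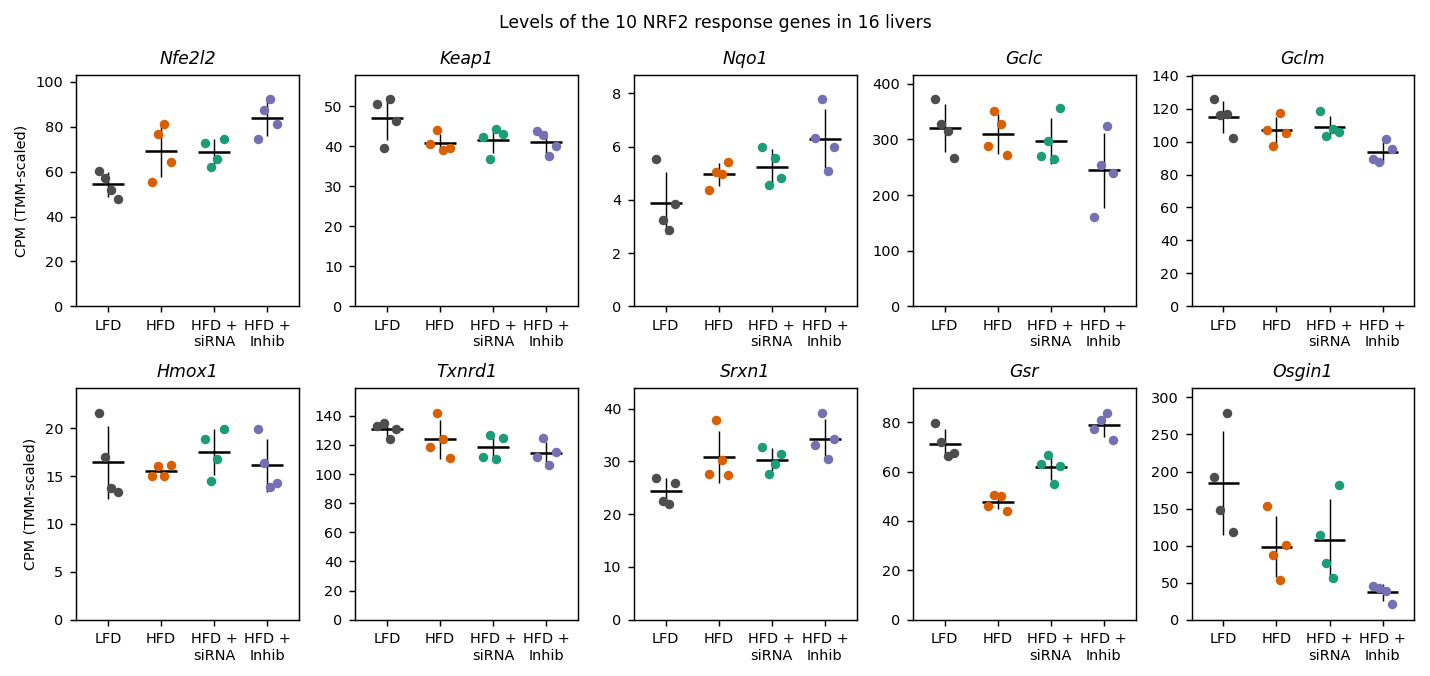
Levels of the 10 genes in CPM (y axis, from 0, a scale of its own in each panel), 1 point per liver, by group (x axis), with the mean (horizontal bar) and SD (vertical line) of 4 livers. Gsr is lowest in the HFD livers, and Osgin1 is lowest in the HFD + Inhib livers.

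Gsr, which encodes the glutathione reductase that restores reduced glutathione with NADPH, was the member with the most calls. It was at 79.5, 72.0, 66.1 and 67.7 CPM in the LFD livers and at 46.2, 50.7, 50.1 and 44.2 CPM in the HFD livers. It was at 63.0, 66.8, 54.8 and 62.1 CPM with the siRNA and at 77.3, 80.7, 83.8 and 72.8 CPM with the inhibitor. The HFD livers were below those of each of the other groups with no overlap, and every HFD + Inhib liver was above every HFD + siRNA liver. Gsr was lower in HFD, at 0.671-fold of LFD (log2 fold change -0.58 ± 0.08 SE, adjusted p = 0.00044). Against HFD it was higher with the siRNA (0.37 ± 0.08, adjusted p = 0.011) and with the inhibitor (0.72 ± 0.08, adjusted p = 2.1e-05). These 3 comparisons share the HFD livers. The call with the siRNA was lost without HFD replicate 4 (0.31, adjusted p = 0.056). The inhibitor group was above the siRNA group by 1.27-fold (0.35 ± 0.08, adjusted p = 0.0044), a comparison that does not use the HFD livers. Against LFD, the differences were not called with the siRNA (-0.21, 95% interval -0.39 to -0.03) or with the inhibitor (0.14, interval -0.04 to 0.32).

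Osgin1, an oxidative stress induced growth inhibitor gene, changed most in size. Its level was 192, 149, 279 and 118 CPM in the LFD livers and 153, 86.7, 53.7 and 101 CPM in the HFD livers. It was 114, 76.4, 56.1 and 182 CPM with the siRNA and 45.3, 42.5, 38.6 and 20.5 CPM with the inhibitor. The 4 HFD + Inhib livers were the lowest of all 16, while the other 3 groups overlapped with each other. With the inhibitor Osgin1 was 0.373-fold of HFD (log2 fold change -1.42 ± 0.38 SE, adjusted p = 0.014), 0.342-fold of HFD + siRNA (-1.55 ± 0.38, adjusted p = 0.0051) and 0.199-fold of LFD (-2.33 ± 0.39, adjusted p = 0.00025). These 3 share the inhibitor livers, and without HFD replicate 1 the first was not called (-1.13, adjusted p = 0.059). The difference between HFD and LFD was not called (-0.91 ± 0.37, adjusted p = 0.10), but it was without HFD replicate 1 (-1.20, adjusted p = 0.049). The spread within groups was also large, with a coefficient of variation of 30.3% to 51.7%.

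Nfe2l2 and Srxn1 were higher in HFD and in HFD + Inhib than in LFD, and HFD + siRNA missed the threshold for both. Nfe2l2 was at 60.2, 57.3, 52.1 and 47.8 CPM in LFD, at 55.2, 76.8, 81.2 and 64.3 CPM in HFD, at 72.7, 62.2, 65.6 and 74.4 CPM with the siRNA, and at 74.4, 87.6, 92.2 and 81.1 CPM with the inhibitor. All LFD livers were below all HFD + siRNA and all HFD + Inhib livers, and 1 HFD liver lay within the LFD range. Nfe2l2 was higher in HFD + Inhib than in LFD by 1.54-fold (log2 fold change 0.63 ± 0.12 SE, adjusted p = 0.00066), and in HFD by 1.28-fold (0.35 ± 0.12, adjusted p = 0.045). In HFD + siRNA against LFD the value was 0.34 ± 0.12, which was not called (adjusted p = 0.087).

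Srxn1 encodes sulfiredoxin, which repairs overoxidized peroxiredoxins. It was at 26.9, 22.6, 21.9 and 25.9 CPM in LFD and at 27.5, 37.8, 30.3 and 27.4 CPM in HFD. It was at 32.8, 27.6, 29.6 and 31.4 CPM with the siRNA and at 33.1, 39.2, 30.5 and 34.2 CPM with the inhibitor. No liver of the 3 high-fat groups was as low as the highest LFD liver. Srxn1 was higher than in LFD with the inhibitor (log2 fold change 0.50 ± 0.11 SE, adjusted p = 0.0028) and in HFD (0.34 ± 0.11, adjusted p = 0.045), and not called with the siRNA (0.32 ± 0.11, adjusted p = 0.095), although with the correction for GC content described later it was (0.33, adjusted p = 0.045). The HFD calls of Nfe2l2 and Srxn1 lay near the threshold. Both were lost with the replicate number as a block, with no low-count filter and with only the 2 groups in the fit. That of Nfe2l2 was also lost with the GC correction. Nfe2l2 lost its call when LFD replicate 2, 3 or 4 or HFD replicate 2, 3 or 4 was left out (0.27 to 0.40, adjusted p 0.053 to 0.16), and Srxn1 without LFD replicate 2 or 3 or HFD replicate 2 or 3 (0.23 to 0.35, adjusted p 0.085 to 0.15).

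Nqo1, the quinone reductase, was at 5.53, 3.26, 2.87 and 3.86 CPM in LFD, at 4.37, 5.06, 4.97 and 5.43 CPM in HFD, at 5.98, 4.55, 5.58 and 4.83 CPM with the siRNA, and at 6.33, 7.77, 5.08 and 6.00 CPM with the inhibitor. LFD replicate 1 was above all 4 HFD livers, while the other 3 LFD livers were the lowest of the 16. Nqo1 was 1.63-fold higher in HFD + Inhib than in LFD (log2 fold change 0.70 ± 0.18 SE, adjusted p = 0.0071), its single call with all libraries, which was lost with the correction for GC content (0.50, adjusted p = 0.060). Without LFD replicate 1, Nqo1 was also called higher than in LFD in HFD (0.584) and with the siRNA (0.645). Against HFD, neither the inhibitor (0.34, 95% interval -0.04 to 0.73) nor the siRNA (0.08, interval -0.31 to 0.47) gave a call. The 5 genes most like Nqo1 over the 16 libraries, among 8575 genes whose average log2 CPM was 3 or more, were Slc16a5 (Pearson's r of log2 CPM 0.905), Fitm1 (0.882), Cox15 (0.864), Usp22 (0.863) and Abhd2 (0.853). These correlations include the differences between groups and are a description.

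The subunits of glutamate-cysteine ligase, which makes the first and limiting step of glutathione synthesis, were not called higher in any comparison, and Gclm was lower with the inhibitor than in LFD. The modifier subunit Gclm was at 126, 116, 117 and 102.1 CPM in LFD, at 107, 97.2, 117 and 106 CPM in HFD, at 118, 103, 108 and 106 CPM with the siRNA, and at 89.2, 87.7, 101.7 and 95.5 CPM with the inhibitor. All HFD + Inhib livers were below all LFD and all HFD + siRNA livers. Gclm was 0.81-fold of LFD with the inhibitor (log2 fold change -0.30 ± 0.08 SE, adjusted p = 0.011), and the difference from HFD + siRNA missed the threshold (-0.22 ± 0.08, adjusted p = 0.054). The catalytic subunit Gclc was at 372, 329, 316 and 267 CPM in LFD and at 160, 254, 324 and 240 CPM with the inhibitor, groups that overlapped (-0.39 ± 0.17, adjusted p = 0.08). Leaving out 1 library moved this value between -0.56 and -0.23. Without HFD + Inhib replicate 3, Gclc was called lower with the inhibitor against both LFD and HFD. In HFD it ranged from 272 to 351 CPM and with the siRNA from 265 to 356 CPM.

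Keap1, Txnrd1 and Hmox1 passed the test in none of the 6 comparisons with all libraries in the fit. Keap1 averaged 47 ± 5.54 (SD) CPM in LFD, 40.8 ± 2.25 in HFD, 41.7 ± 3.3 with the siRNA and 41 ± 2.85 with the inhibitor. Without LFD replicate 2, Keap1 was called lower than in LFD both in HFD and with the inhibitor. With 1 library left out, these values ranged from -0.28 to -0.15 and from -0.27 to -0.15. The GC correction described later instead gave a call of higher Keap1 with the inhibitor than in LFD. Txnrd1, which encodes the cytosolic thioredoxin reductase, averaged 131 ± 4.66, 124 ± 13.4, 118 ± 8.77 and 114 ± 7.83 CPM in the same order. Hmox1, which encodes the inducible heme oxygenase and is also expressed by macrophages, averaged 16.4 ± 3.82, 15.6 ± 0.641, 17.5 ± 2.39 and 16.1 ± 2.74 CPM. For these genes the 95% intervals of the log2 fold changes with the inhibitor against HFD were -0.19 to 0.20 for Keap1, -0.29 to 0.07 for Txnrd1 and -0.27 to 0.37 for Hmox1.

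**Figure D2:**
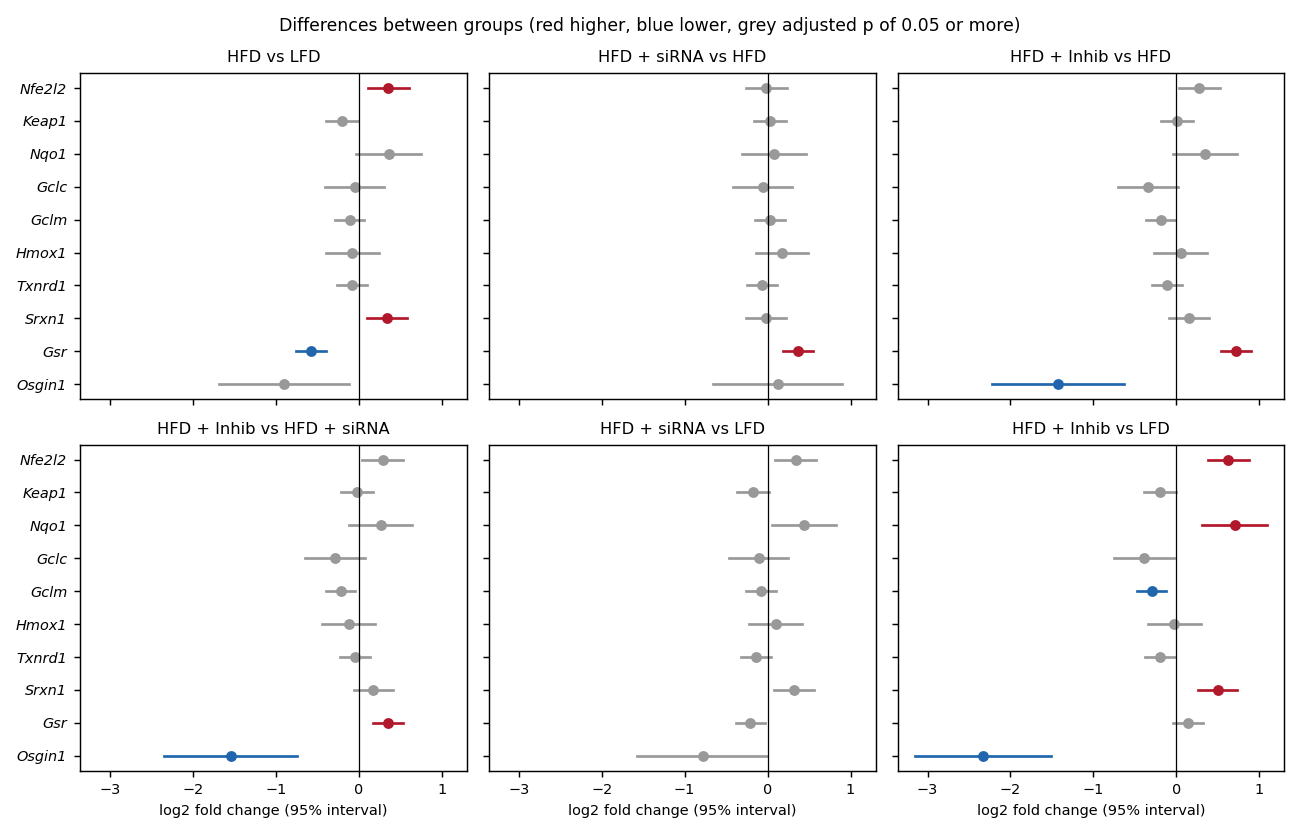
Log2 fold change (x axis) of each of the 10 genes (y axis) in 6 comparisons, 1 per panel, with 95% intervals; red and blue mark an adjusted p under 0.05. Gsr is called in 4 of the panels and Osgin1 in 3, and no gene is called in HFD + siRNA against LFD.

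Counts of called members are given beside the share of all tested genes called in the same direction. In HFD against LFD, 2 of 10 were higher (9.58% of all tested genes were) and 1 was lower (8.8%). With the siRNA against HFD, 1 was higher (5.2%) and none lower (6.55%). With the inhibitor against HFD, 1 was higher (9.8%) and 1 lower (8.42%), and the counts against HFD + siRNA were again 1 higher (17.3%) and 1 lower (16.6%). With the inhibitor against LFD, 3 were higher (18.8%) and 2 lower (18.2%). With the siRNA against LFD, edgeR and DESeq2 each called 0 members, against 4.75% higher and 3.88% lower of all genes, while 5 of 10 members had an unadjusted p under 0.05, as did 21.8% of all tested genes. An unadjusted p under 0.05 was found for 5 members in HFD against LFD (32.7% of all tested genes) and for 1 in siRNA against HFD (26.9%). It was found for 4 in inhibitor against HFD (30.9%), 4 in inhibitor against siRNA (43.9%) and 8 in inhibitor against LFD (46.4%). The median log2 fold change of the 10 was -0.08, 0.03 and 0.03 in HFD against LFD, siRNA against HFD and inhibitor against HFD, and that of all tested genes was -0.01, 0.02 and -0.0044.

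Base composition moved with the groups, and a correction for it together with transcript length moved the values of some members. Across 8232 genes, log2 fold changes correlated with transcript GC content in HFD against LFD (Spearman's rho -0.507), in siRNA against HFD (0.477), in inhibitor against HFD (-0.271), in inhibitor against siRNA (-0.516) and in inhibitor against LFD (-0.544), and little in siRNA against LFD (-0.0891). The GC content of the members ran from 44.9% in Gclm to 59.2% in Keap1 and 60.0% in Osgin1. With this correction for GC content and length, in which 15832 genes were tested, Gsr and Osgin1 kept all of their calls. Srxn1 was then called higher in HFD + siRNA than in LFD (0.33, adjusted p = 0.045) and with the inhibitor than with the siRNA (0.30, adjusted p = 0.034), and Gsr was called lower in HFD + siRNA than in LFD (-0.24, adjusted p = 0.045). Keap1 turned from -0.20 to 0.16 in inhibitor against LFD (adjusted p = 0.036) and from -0.02 to 0.26 against HFD + siRNA (adjusted p = 0.0022), and was called higher against HFD (0.18, adjusted p = 0.028). Gclm was then lower with the inhibitor also against HFD (-0.35, adjusted p = 0.018) and HFD + siRNA (-0.49, adjusted p = 0.0015). Against LFD, Gclc (-0.53, adjusted p = 0.021) and Txnrd1 (-0.20, adjusted p = 0.048) were called lower as well. The calls of Nqo1 in inhibitor against LFD (0.50, adjusted p = 0.060) and of Nfe2l2 in HFD against LFD (0.26, adjusted p = 0.15) were lost. Whether this trend arose in the livers or in library preparation was not tested.

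**Figure D3:**
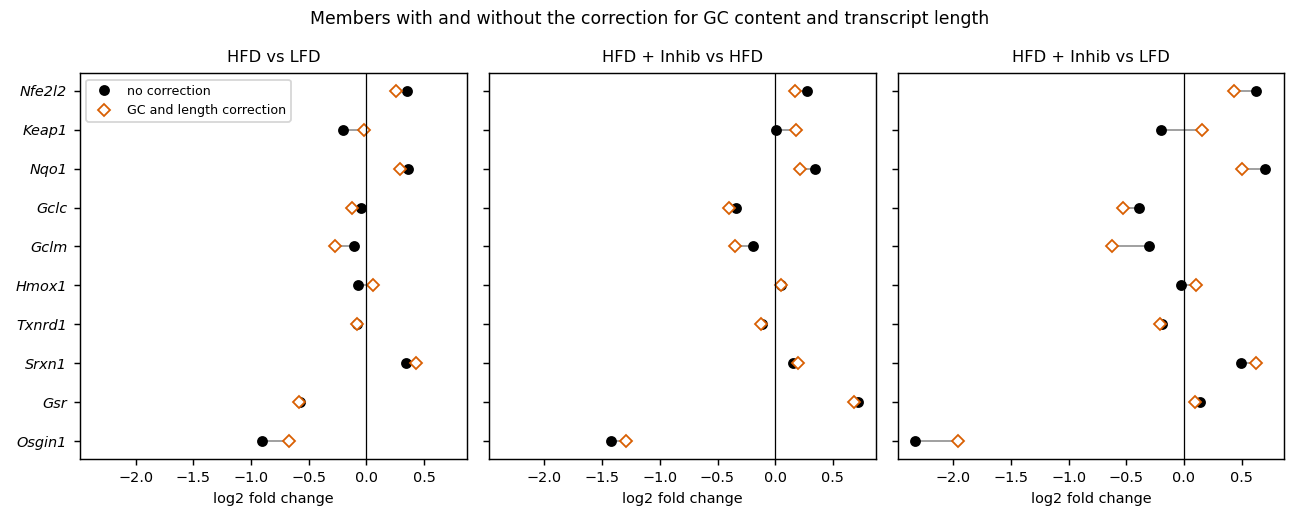
Log2 fold change (x axis) of the 10 genes (y axis) without (filled circle) and with (open diamond) the correction for GC content and transcript length, in 3 comparisons. Keap1 crosses 0 in HFD + Inhib vs LFD, while Gsr moves little.

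The wider pathway was read from lists of other genes, counted whole. These counts are to be read beside the shares of all tested genes given above. Among 11 regulators, 3 were higher in HFD than in LFD and none lower. Nfe2l1, which encodes the NRF2 relative NRF1, was at 109 to 128 CPM in LFD, 140 to 156 in HFD, 141 to 174 with the siRNA and 210 to 229 with the inhibitor. It was higher than in LFD in HFD (log2 fold change 0.35 ± 0.08 SE, adjusted p = 0.0073), with the siRNA (0.46 ± 0.08, adjusted p = 0.0021) and with the inhibitor (0.92 ± 0.08, adjusted p = 4.6e-07), and with the inhibitor also than in HFD (0.57 ± 0.08, adjusted p = 1e-04). Cul3, the scaffold of the ligase that KEAP1 serves, was higher in HFD (0.43) and lower with the siRNA than in HFD (-0.44), but with the GC correction these were 0.03 and -0.04 and neither was called. With the inhibitor, 2 regulators were higher than in HFD and 1 lower, the last being the small MAF gene Mafg (-0.38, adjusted p = 0.031), which was not called with the correction (-0.27, adjusted p = 0.15).

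The glutathione transferases, which conjugate electrophiles to glutathione, were mostly lower where they were called, except with the siRNA against HFD. Of 12, 1 was higher and 6 were lower in HFD than in LFD, 4 were higher and none lower with the siRNA than in HFD, and 2 were higher and 5 lower with the inhibitor than in HFD. With the siRNA against HFD, 1 was also lower with DESeq2 and with RLE scaling (each 4 higher and 1 lower) and with the GC correction (3 higher and 1 lower). Against LFD, 1 was higher and 3 were lower with the siRNA, among the latter Gstm4 (log2 fold change -0.72 ± 0.12 SE, adjusted p = 0.0018) and Gstm1 (-0.62 ± 0.15, adjusted p = 0.018). Against LFD, 1 was higher and 9 were lower with the inhibitor, with a median log2 fold change of -1.28 (all tested genes -0.02). Gstp1 was at 2020, 1350, 1583 and 1080 CPM in LFD and at 543, 754, 388 and 421 CPM in HFD. It was at 883, 1150, 877 and 1440 CPM with the siRNA and at 327, 224, 188 and 163 CPM with the inhibitor. The HFD livers were below the LFD and the siRNA livers and above the inhibitor livers, with no overlap. Gstp1 fell in HFD against LFD (-1.52 ± 0.26 SE, adjusted p = 0.0013), was higher with the siRNA than in HFD (1.05 ± 0.26, adjusted p = 0.016) and was lower with the inhibitor than in HFD (-1.22 ± 0.26, adjusted p = 0.0033). Gstp2 gave -1.92, 1.62 and -0.67 in the same comparisons, the last not called. Gstm2 was at 43.0 to 58.8 CPM in HFD and 8.83 to 13.2 CPM with the inhibitor (-2.16 ± 0.17, adjusted p = 3.6e-07), and Gstm3 fell likewise (-1.80 ± 0.27, adjusted p = 0.00019). Gstm4 went the other way, at 24.8 to 32.8 CPM in HFD and 45.1 to 55.8 CPM with the inhibitor. Gstp1 and Gstp2, and genes within the Gstm and Gsta families, are near-identical, so the division of reads between them is uncertain.

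Superoxide dismutases and catalase were higher with the inhibitor than in HFD where they were called, while thioredoxins and peroxiredoxins were called in both directions. Sod1, the cytosolic superoxide dismutase, was at 437 to 617 CPM in LFD and 373 to 400 CPM in HFD (log2 fold change -0.43 ± 0.10 SE, adjusted p = 0.0083). It was higher than in HFD with the siRNA (504 to 583 CPM, 0.48 ± 0.10, adjusted p = 0.0068) and with the inhibitor (530 to 640 CPM, 0.58 ± 0.10, adjusted p = 0.00074). With the GC correction the first 2 were just short of a call (-0.22, adjusted p = 0.067, and 0.25, adjusted p = 0.051). Of 4 superoxide dismutases and catalase, 3 were higher with the inhibitor than in HFD and none lower, Sod2 (0.33) and Cat (0.39) with Sod1. Of 10 thioredoxins and peroxiredoxins, 3 were lower in HFD than in LFD and none higher, 1 was higher and 1 lower with the siRNA than in HFD, and 2 were higher and 1 lower with the inhibitor (9.8% and 8.42% of all tested genes). Mitochondrial Prdx3 was at 46.0, 37.5, 34.6 and 35.8 CPM with the siRNA and at 61.0 to 80.0 CPM in HFD (-0.87 ± 0.12, adjusted p = 0.00043). The siRNA livers were the lowest of the 16, and the inhibitor livers were at 62.3 to 85.8 CPM. Prdx4, of the endoplasmic reticulum, was at 18.3 to 26.5 CPM with the inhibitor and at 31.9 to 39.5 CPM in HFD (-0.64 ± 0.11, adjusted p = 0.00056).

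Genes of glutathione use, NADPH supply and the pentose phosphate pathway were called in both directions. Of 7 genes listed for glutathione synthesis and use, 4 passed the low-count filter. None of them was called in HFD against LFD, 1 was lower and none higher with the siRNA than in HFD, and 2 were higher and 1 lower with the inhibitor. Gpx4, the phospholipid hydroperoxidase, was higher with the inhibitor than in HFD (log2 fold change 0.62 ± 0.12 SE, adjusted p = 0.0016), whereas Gss, glutathione synthetase, was lower (-0.51 ± 0.14, adjusted p = 0.020). Glutaredoxin, Glrx, was lower with the siRNA (-0.56 ± 0.12, adjusted p = 0.0079). Of 6 genes listed for NADPH supply, 2 were lower and none higher in HFD than in LFD, 1 was lower and none higher with the siRNA than in HFD, and 3 were higher and none lower with the inhibitor. The list includes Tkt and Taldo1, pentose phosphate enzymes that do not themselves make NADPH. Taldo1 was among those higher with the inhibitor than in HFD (0.44 ± 0.105, adjusted p = 0.0082). Neither of the genes lower in HFD, G6pdx (-0.54, adjusted p = 0.058) and Tkt (-0.23, adjusted p = 0.12), was called with the GC correction. Me1, the cytosolic malic enzyme and also a lipogenic gene, was at 181 to 408 CPM in HFD, 66.9 to 114 CPM with the siRNA and 399 to 596 CPM with the inhibitor. It was lower with the siRNA than in HFD (-1.60 ± 0.22, adjusted p = 6e-04), and between the treatments it differed 5.59-fold (2.48 ± 0.23, adjusted p = 1.2e-06).

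**Figure D4:**
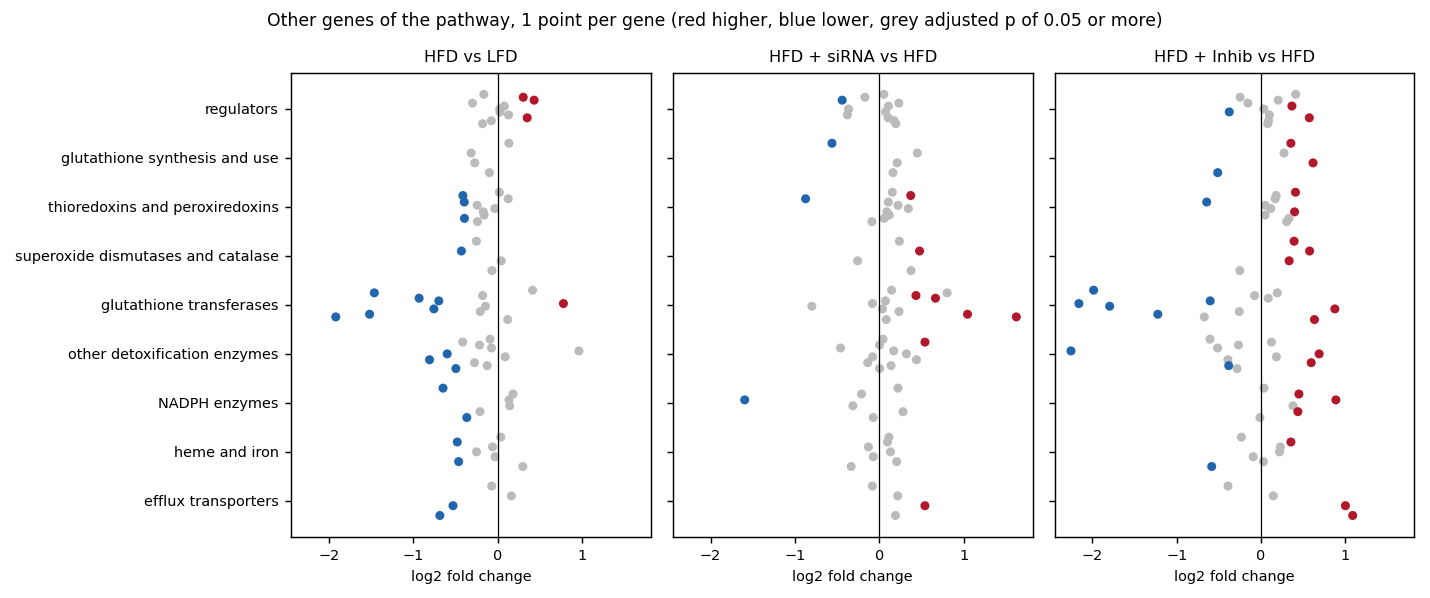
Log2 fold change (x axis) of the other genes of the pathway, 1 point per gene by list (y axis), in 3 comparisons that share the HFD livers. Blue points, lower with an adjusted p under 0.05, include 6 of 12 glutathione transferases in HFD vs LFD and 5 of 12 in HFD + Inhib vs HFD.

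Other detoxification enzymes, transporters and heme genes moved in both directions. Of 11 other detoxification enzymes, 3 were lower and none higher in HFD than in LFD, 1 was higher and none lower with the siRNA than in HFD, and 2 were higher and 2 lower with the inhibitor. Cyp2a5, a coumarin hydroxylase gene with a near-identical neighbour in its family, was at 192 to 701 CPM in HFD and 56.8 to 163 CPM with the inhibitor (log2 fold change -2.25 ± 0.44 SE, adjusted p = 0.0020). Microsomal epoxide hydrolase, Ephx1, was lower in HFD than in LFD (-0.60 ± 0.13, adjusted p = 0.0064) and higher with the inhibitor than in HFD (0.69 ± 0.13, adjusted p = 0.0016). Of 4 efflux transporters, 2 were lower in HFD, 1 was higher with the siRNA and 2 were higher with the inhibitor than in HFD. The conjugate exporter Abcc3 was in all 3 counts (-0.53 ± 0.11 in HFD against LFD, adjusted p = 0.0034, then 0.54 ± 0.11, adjusted p = 0.0043, and 2-fold higher with the inhibitor, adjusted p = 6.9e-06). Of 7 heme and iron genes, 2 were lower in HFD than in LFD, none was called with the siRNA against HFD, and 1 was higher and 1 lower with the inhibitor. Biliverdin reductase, Blvrb, was lower in HFD (-0.48 ± 0.10, adjusted p = 0.0040) and higher with the inhibitor than in HFD (0.35 ± 0.10, adjusted p = 0.018).

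Targets of other regulators, some of which share target genes with NRF2, were counted beside these. Of 16 PPARα targets, 15 were higher and none lower with the inhibitor than in HFD, with a median log2 fold change of 2.38, and with the siRNA 1 was lower (Ehhadh, -0.65 ± 0.14 SE, adjusted p = 0.0084) and none higher. Cyp4a10, a fatty acid hydroxylase gene, was 38.3-fold higher with the inhibitor (5.26 ± 0.34, adjusted p = 3.4e-08). Of 8 CAR and PXR targets, 3 were higher and none lower with the inhibitor than in HFD, among them Por, the electron donor of the cytochromes P450 (1.30 ± 0.22, adjusted p = 0.00054). With the siRNA, 1 was higher and 2 were lower. Of 8 ATF4 targets, 2 were lower and none higher with the inhibitor, the glutathione-degrading Chac1 (-1.75 ± 0.48, adjusted p = 0.017) and Ddit4 (-1.23 ± 0.30, adjusted p = 0.0086), and none was called with the siRNA. The part of these regulators in the members' values was not tested.

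List counts against HFD and LFD also moved with the settings. With the GC correction, regulators higher in HFD than in LFD went from 3 to 2. Thioredoxins and peroxiredoxins went from 3 to 2 lower in HFD, from 1 to 0 higher with the siRNA and from 2 to 1 higher with the inhibitor. Heme and iron genes went from 0 higher and 2 lower to 1 higher and 1 lower in HFD, and from 0 to 1 lower with the siRNA. Other detoxification enzymes went from 1 to 2 higher with the siRNA and from 2 to 4 lower with the inhibitor, and efflux transporters from 1 to 2 higher with the siRNA and from 0 to 1 lower with the inhibitor. CAR and PXR targets turned from 1 higher and 2 lower to 2 higher and 1 lower with the siRNA, where Cyp3a11, a drug-metabolizing cytochrome P450 gene, lost its call (-0.54, adjusted p = 0.11), and went from 0 to 1 lower with the inhibitor. PPARα targets went from 1 to 2 lower with the siRNA, and glutathione transferases from 9 to 10 lower in inhibitor against LFD. Of the markers lower with the inhibitor than in HFD, the hepatocyte count went from 3 to 4, the macrophage count from 2 to 3 and the lymphocyte count from 4 to 3.

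With DESeq2, 1 regulator was lower in HFD than in LFD and 2 were lower with the inhibitor than in HFD. Other detoxification enzymes lower in HFD were then 4, and 2 heme and iron genes were higher with the inhibitor. With the siRNA, 1 gene of glutathione synthesis and use was higher and 2 PPARα targets were lower, and the markers lower with the inhibitor were 4 of hepatocytes and 4 of macrophages. Of the superoxide dismutases and catalase, 1 was lower with the siRNA than in HFD with DESeq2, RLE scaling and the GC correction, against none without them. With RLE scaling, no CAR or PXR target was called higher with the siRNA.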

How the data were processed

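Liver RNA of 16 mice was measured, 4 per group, grouped by the labels. The values deposited by the authors were RSEM-type expected counts for each gene symbol, not scaled between libraries, in which 15.1% of values were not whole. The submitters' processing notes name STAR, RSEM and mm39, without versions, and the annotation is not given in the sources used here. The methods name HTG EdgeSeq, a probe assay, which does not match RSEM values, so the assay behind the table is not settled.

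Expected counts were rounded. Genes passed filterByExpr (minimum count 10, minimum total 15), libraries were scaled by TMM, and 6 comparisons were fitted together over 16 libraries and tested with the edgeR quasi-likelihood method, adjusted by Benjamini-Hochberg (R 4.3.3, edgeR 4.0.16, limma 3.58.1, DESeq2 1.42.0). Scripts were tested on simulated data. CPM uses TMM-scaled totals. Log2 CPM for correlations used a prior count of 2. p-values measure the spread between these samples, and depth differed little (24317111 to 35820234). No pair of libraries in a group was alike within sampling noise (chi-square per gene 20.6 to 154 in 24 pairs).

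The members and lists were chosen with earlier results of these data known. Besides the members, the genes named from a list were called and did not overlap between groups, at most the 4 of largest change per list and comparison, and 5 genes were named for likeness to Nqo1. Gene lengths and GC content came from GENCODE M21 transcripts (86.5% of tested genes), and promoters from RefSeq on GRCm38.p6, another build than mm39, so positions of both builds were not combined. The promoter motifs were chosen after the members' values were seen, and the second was added after the matches of the first were seen. Alternatives were DESeq2, RLE scaling, no filter, 10 counts in every library, a fit of only the groups compared, the replicate number as a block, a correction for GC content and length (a spline per library, 5 degrees of freedom, fitted to genes whose average log2 CPM was 3 or more), both together, a threshold of 0.01, and each replicate left out. For the wider lists, DESeq2, RLE and the GC correction were added after seeing the data.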

Additional observations from a re-analysis of the deposited data

Results flagged for a closer look

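No value stood far enough from the others of its group to be set apart: in 40 groups of 4 livers (10 genes in 4 groups), the gap of the highest or lowest liver to its neighbour stayed within Dixon's 95% limit.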

How the results depend on the processing

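DESeq2, RLE scaling and a minimum of 10 counts in every library changed no call of a member. Over 960 repeats of single members, which leave out the threshold of 0.01, 864 kept direction and side of the threshold, 22 lost a call, 27 gained one and 47 turned sign, 4 of these past the threshold, all Keap1 with the GC correction. The cause of the changes was not tested. In HFD against LFD, 1 member was called in place of 3 with no filter, with only the 2 groups in the fit, with the replicate block and at a threshold of 0.01 (Gsr each time). At 0.01, 0 were called with the siRNA and 1 with the inhibitor against HFD (Gsr and Osgin1 lost), and Gclm was lost in inhibitor against LFD. With the GC and length correction, 2 were called in HFD against LFD, 1 in siRNA against HFD, 4 in inhibitor against HFD, 5 in inhibitor against siRNA, 2 in siRNA against LFD and 7 (in place of 5) in inhibitor against LFD. With the replicate block as well they were 3, 1, 4, 5, 1 and 7, with Gclm gained in HFD against LFD (-0.27, adjusted p = 0.047). Values that turned sign with the GC correction were Keap1 (-0.078 in siRNA against HFD, 0.26 in inhibitor against siRNA, 0.16 in inhibitor against LFD), Hmox1 (0.056 in HFD against LFD, 0.00040 in inhibitor against siRNA, 0.10 in inhibitor against LFD), Nfe2l2 (0.057) and Osgin1 (-0.012), both in siRNA against HFD. With the replicate block as well, they were Keap1 (-0.078, 0.26 and 0.16), Hmox1 (0.073 in HFD against LFD, 0.11 in inhibitor against LFD), Nfe2l2 (0.063) and Gclc (0.0038), both in siRNA against HFD. With only the 2 groups, Keap1 was -0.0052 in inhibitor against HFD.

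With 1 replicate left out at a time, 1 to 4 members were called in HFD against LFD, 0 to 1 in siRNA against HFD, 1 to 3 in inhibitor against HFD, 2 to 3 in inhibitor against siRNA, 0 to 1 in siRNA against LFD and 5 to 6 in inhibitor against LFD. Uncalled values near 0 then turned sign. In siRNA against HFD the ranges were -0.11 to 0.070 for Nfe2l2, -0.019 to 0.068 for Keap1, -0.0060 to 0.12 for Nqo1, -0.17 to 0.0073 for Gclc, -0.028 to 0.077 for Gclm, -0.13 to 0.0081 for Txnrd1, -0.091 to 0.095 for Srxn1 and -0.28 to 0.41 for Osgin1. In HFD against LFD they were -0.12 to 0.038 for Gclc and -0.16 to 0.091 for Hmox1. In inhibitor against HFD they were -0.029 to 0.049 for Keap1 and -0.070 to 0.12 for Hmox1. In inhibitor against siRNA they were -0.059 to 0.021 for Keap1 and -0.082 to 0.0040 for Txnrd1. Hmox1 ranged from -0.0020 to 0.25 in siRNA against LFD and from -0.14 to 0.14 in inhibitor against LFD.

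The replicate numbers have no stated pairing. Deviations of same-numbered livers from their group means correlated at -0.132 to 0.336 (6 of 24 over 0.1), with the highest for replicate 3 of HFD and HFD + Inhib. Livers of different numbers were not compared in this way. The replicate block also added Gclm in inhibitor against siRNA (-0.22, adjusted p = 0.047) and changed no other call than those above. Counts of all genes called fell from 3370, 2154, 3339, 6204, 1582 and 6767 to 1287, 689, 1733, 3711, 566 and 4123 at 0.01, in the order HFD against LFD, siRNA against HFD, inhibitor against HFD, inhibitor against siRNA, siRNA against LFD and inhibitor against LFD. With only the 2 groups, siRNA against LFD had 808 calls. Leaving out 1 library lowered HFD against LFD to 2147 (LFD replicate 1), 2001 (LFD replicate 3), 2013 (HFD replicate 3) or 2183 (HFD replicate 4), siRNA against HFD to 1100 or 1328 (HFD replicates 3 and 4) or to 1423, 1391 or 1162 (siRNA replicates 1, 3 and 4), and siRNA against LFD to 1052, 965 or 992 (the same siRNA replicates). Of 184 values that met the rule for naming genes of the wider lists, not all of which appear above, none turned sign with DESeq2, RLE or the GC correction. With these, 183, 184 and 155 kept their call.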
